A study of Mus musculus with 8 samples.

Results

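The genes followed here are 10 textbook antioxidant enzymes and targets of the transcription factor NRF2, out of 25965 genes in the deposited expression table: *Nqo1*, *Hmox1*, *Gclc*, *Gclm*, *Txnrd1*, *Srxn1*, *Slc7a11*, *Gpx2*, *Gpx3* and *Sod2*. They were taken by name, and all 10 had a row in the table. RNA-seq was made from whole mouse lung at E18.5, the last day before birth, and at P1.5, shortly after it. *Wfdc2*+/+ lungs carried the normal gene for the secreted protease inhibitor Wfdc2. *Wfdc2*GFP/GFP lungs carried a germline knock-in from TT2 embryonic stem cells on both copies, in which an IRES-EGFP cassette took the place of part of the first exon and the second exon. The lesion was therefore present in every cell from conception, and *Wfdc2*+/+ lungs carried no cassette. Each of the 4 combinations of stage and genotype had 2 libraries. The study's methods do not say whether a library came from a single animal or a pool. The study calls the *Wfdc2*+/+ animals littermate controls, and the sources used here do not say which libraries shared a litter. No animal received a treatment, so birth and the missing Wfdc2 were the conditions compared. The study's methods name 2 models of sequencing instrument and not which library ran on which. Instrument was therefore not separated from stage or genotype.

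NRF2, encoded by *Nfe2l2*, is held in the cytoplasm and marked for destruction by KEAP1. Oxidants and electrophiles modify KEAP1, NRF2 accumulates, and with a small MAF partner it binds antioxidant response elements, which BACH1 otherwise occupies as a repressor. Its targets make glutathione, recycle thioredoxin and detoxify quinones and haem, while superoxide dismutases and glutathione peroxidases remove superoxide and peroxides directly. At birth the lung passes from low fetal oxygen to room air, and antioxidant enzymes have long been studied in that setting.

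The libraries held between 19457647 and 37209332 reads. *Wfdc2* had 8038 to 32845 reads where the labels give the normal gene (4 libraries) and 0 to 12 where they give the knock-in (4 libraries). Markers of type II alveolar cells summed to between 9708 and 69770 RPM (reads-per-million units), so that the labelled tissue was recognisable in every library. Replicate 1 of each group had 4121 to 90980 *Xist* reads and replicate 2 had 1 to 13, so each group held a library of either sex. Taken over all tested genes, the median level was highest, at 0.02 log2 RPKM, in E18.5 *Wfdc2*GFP/GFP replicate 1. It was lowest in P1.5 *Wfdc2*+/+ replicate 1, at -0.96, with P1.5 *Wfdc2*GFP/GFP replicate 1 close to it at -0.95. As a result the median gene changed by -0.32 on the log2 scale across birth over both genotypes, against which the changes below may be read. After centring each library on its median, that value was 0.15.

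Antioxidant response elements share the core TGACNNNGC. Promoter windows of 300 bases, from 250 before to 50 after the start site, were taken from RefSeq (GRCm38.p6) and searched on both strands. Windows were found for 8 of the 10 genes, *Gclc* and *Hmox1* being the others. The core lay in the windows of 3 of these 8 genes, *Gclm*, *Txnrd1* and *Srxn1*, against 14.0% of all 27025 genes with a window and 12.4% of all 32851 windows. Each of the 3 matches was read on the strand opposite to the gene, so that the element appears as GCNNNGTCA. The following stretches show these matches in capitals, because these are the members that can be compared at this element. The *Gclm* match began 134 bases before the start site (plus strand, chr3:122245383-122245471), the *Txnrd1* match 92 bases before one of its 3 annotated start sites (plus strand, chr10:82859074-82859162), and the *Srxn1* match 29 bases into the transcript (plus strand, chr2:152105542-152105570).
Gclm: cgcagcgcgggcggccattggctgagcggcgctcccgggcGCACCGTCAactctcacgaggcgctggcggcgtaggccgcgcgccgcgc
Txnrd1: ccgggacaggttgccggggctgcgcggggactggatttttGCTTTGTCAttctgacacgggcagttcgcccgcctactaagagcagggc
Srxn1: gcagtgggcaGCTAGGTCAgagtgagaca

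The 250 bases before the start site of *Gpx2*, the member that differed most between stages, held no such core (minus strand, chr12:76795555-76795804). No match says only that these letters are not in this window.
Gpx2: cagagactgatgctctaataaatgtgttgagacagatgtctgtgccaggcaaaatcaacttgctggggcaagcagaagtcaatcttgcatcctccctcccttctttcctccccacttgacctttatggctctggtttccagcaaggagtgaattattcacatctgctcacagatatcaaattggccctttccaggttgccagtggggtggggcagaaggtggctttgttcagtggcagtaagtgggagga

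The levels of the 10 genes spanned a wide range. On the deposited scale, log2 RPKM (RPM divided by the kilobases of gene span), *Gpx3*, the secreted glutathione peroxidase, was the most abundant, with a mean of 5.43 over the 8 libraries and libraries between 3.70 and 7.70. Of the genes tested, 98.0% had a lower mean level. *Sod2*, the manganese superoxide dismutase of mitochondria, followed at 3.0 (2.12 to 4.62), and *Hmox1*, which opens the haem ring, at 1.84 (1.33 to 2.69). *Srxn1*, *Gpx2*, *Gclc*, *Txnrd1* and *Gclm* had mean levels between 0.16 and 0.64, and their ranges over the libraries overlapped, so that no order among them stood beyond their spread. *Nqo1*, a quinone reductase, had a mean level of -1.65 (-2.06 to -1.39), below that of each of those 5. *Slc7a11*, the cystine importer, had 10 to 114 reads per library and a mean level of -6.15, below the minimum of 0.05 RPKM set for testing, so 9 of the 10 genes were tested.

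The deposited lengths include introns, which changes this order. Per kilobase of annotated exon inside the deposited span, *Gclc* moved from place 6 to place 3 and *Gpx2* from place 5 to place 9, while *Gpx3* and *Sod2* stayed at places 1 and 2 and *Slc7a11* at the bottom. The annotation used here marks 100% of the *Gpx2* span as exon, against 9.43% of the *Gclc* span. Levels varied least for *Nqo1*, whose highest library was 1.59-fold above its lowest, and most for *Gpx2*, with a 53.4-fold range.

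**Figure D1:**
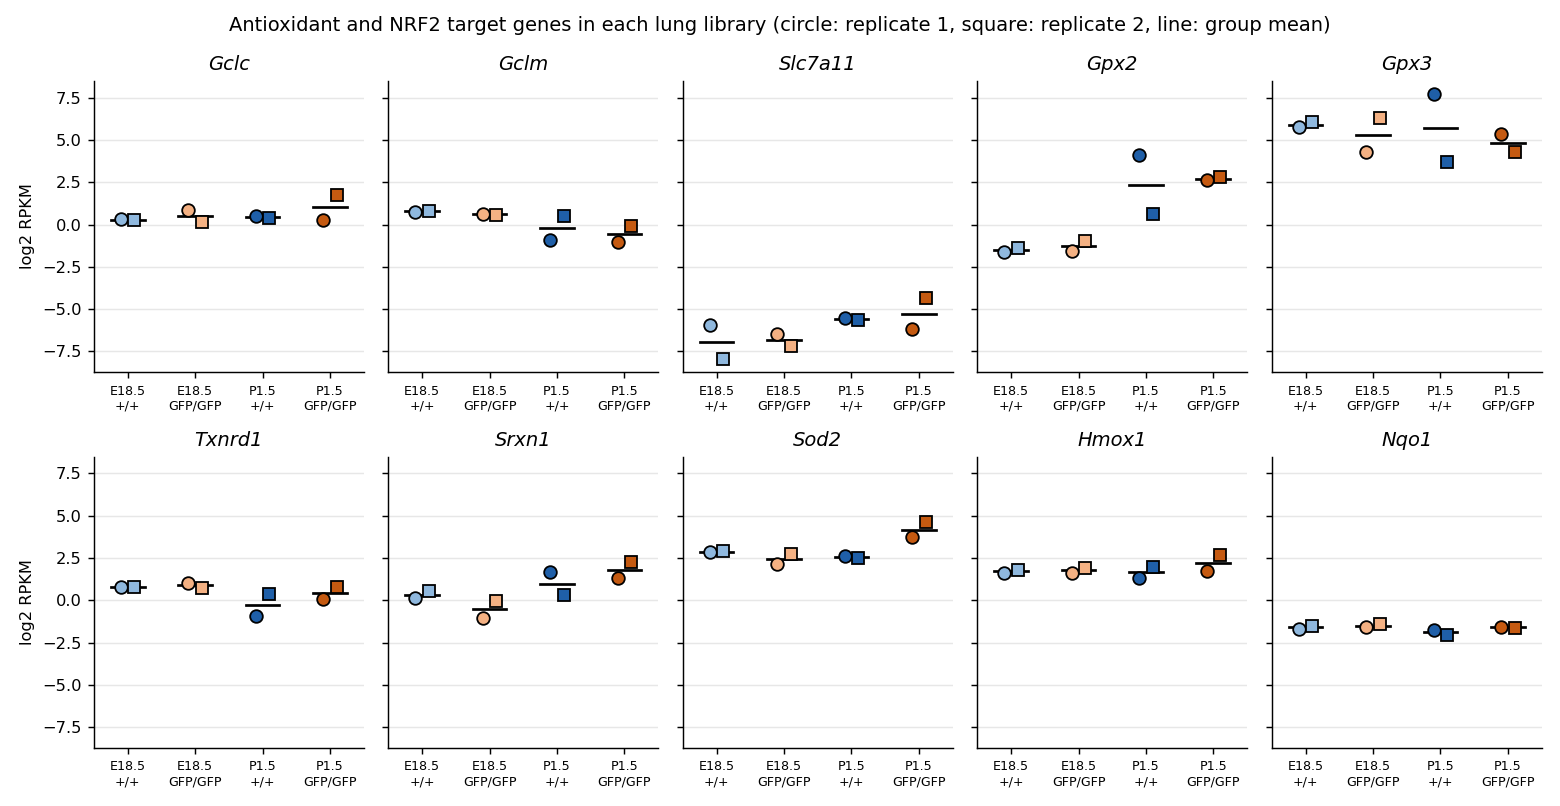
Level of each of the 10 genes (vertical axis, log2 RPKM) in the 8 libraries, arranged by stage and genotype on the horizontal axis, with circles for replicate 1, squares for replicate 2 and a line at the mean of each group. The *Gpx2* points lie between -1.62 and -1.0 at E18.5 and between 0.60 and 4.12 at P1.5, whereas those of *Nqo1* all lie between -2.06 and -1.39.

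Across birth, 1 of the 9 tested genes was higher at P1.5 over both genotypes and none was lower. The test was limma's moderated test on log2 RPKM with Benjamini-Hochberg adjustment over all 15627 genes tested, and a gene was called at an adjusted p under 0.05. Among all genes tested, 2.58% were called higher and 2.56% lower in this comparison, and 1 of 9 is too small a count to set against these shares. Of the 9 tested genes 5 had a positive and 4 a negative log2 change, with a median of 0.20, beside a median of -0.32 for all genes tested. In bulk tissue, fewer cells of a type and less RNA per cell cannot be told apart.

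*Gpx2*, a glutathione peroxidase of epithelia, was the gene that rose. At E18.5 it had 1.05 and 1.25 RPM in *Wfdc2*+/+ lungs, and *Wfdc2*GFP/GFP lungs had 1.08 and 1.61. At P1.5 the *Wfdc2*+/+ replicates had 55.8 and 4.88 RPM, whereas those of *Wfdc2*GFP/GFP lungs had 19.6 and 22.1. Every P1.5 library thus stood above every E18.5 library, which held for 7.28% of the genes tested, although the P1.5 *Wfdc2*+/+ libraries lay far apart. The log2 change was 3.92 ± 0.67 (SE, n = 4 libraries per stage, 95% interval 2.37 to 5.47), a 15.1-fold difference, with a limma adjusted p of 0.0310. The log2 change was 3.85 ± 0.95 in *Wfdc2*+/+ lungs (limma adjusted p = 0.209) and 3.99 ± 0.95 in *Wfdc2*GFP/GFP lungs (limma adjusted p = 0.0526). The call over both genotypes was lost when either E18.5 *Wfdc2*+/+ library, E18.5 *Wfdc2*GFP/GFP replicate 1 or either P1.5 *Wfdc2*GFP/GFP library was left out. Over the 8 single omissions the log2 change then lay between 3.04 and 4.80 and the adjusted p between 0.000619 and 0.110.

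The *Gpx2* gene (chr12:76792335-76795554 in mm10, minus strand, protein coding) lies within *Fntb*, which is transcribed from the opposite strand. The library kit keeps strand, but the strand setting of the counting was not stated. Counting over the whole *Fntb* span on both strands would have given *Fntb* every *Gpx2* read as well. In P1.5 *Wfdc2*+/+ replicate 1 *Gpx2* had 1212 reads and *Fntb* 1060. Whether *Fntb* reads entered the *Gpx2* values was not tested. *Fntb* had 55.4 to 69.6 RPM in the E18.5 libraries and 48.8 to 58.3 in the P1.5 libraries. The *Fntb* levels at P1.5 thus lay within or below those at E18.5.

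*Gpx2* was highest in the library in which the summed airway and summed neutrophil markers were also highest, P1.5 *Wfdc2*+/+ replicate 1. Of the airway markers, *Scgb1a1* was highest there, at 10799 RPM. *Cyp2f2* was not, with 351 RPM there and 546 in P1.5 *Wfdc2*+/+ replicate 2. The 8 markers of club and ciliated airway cells summed to between 778 and 3065 RPM at E18.5 and between 8763 and 18772 at P1.5, and the 12 neutrophil markers to between 60.5 and 98.2 and between 682 and 1903. In the E18.5 libraries 1 to 3 of the 12 neutrophil markers were at or under 3 reads. Over both genotypes 8 of the 12 neutrophil markers and 2 of the 8 airway markers were called higher, and none lower. Summed macrophage and monocyte markers were at 214 to 802 RPM at E18.5 and 774 to 1385 at P1.5, and summed erythroid markers at 2121 to 7264 and 7685 to 13944. The part of these cells in the result for *Gpx2*, and in those for the genes below, was not tested.

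**Figure D2:**
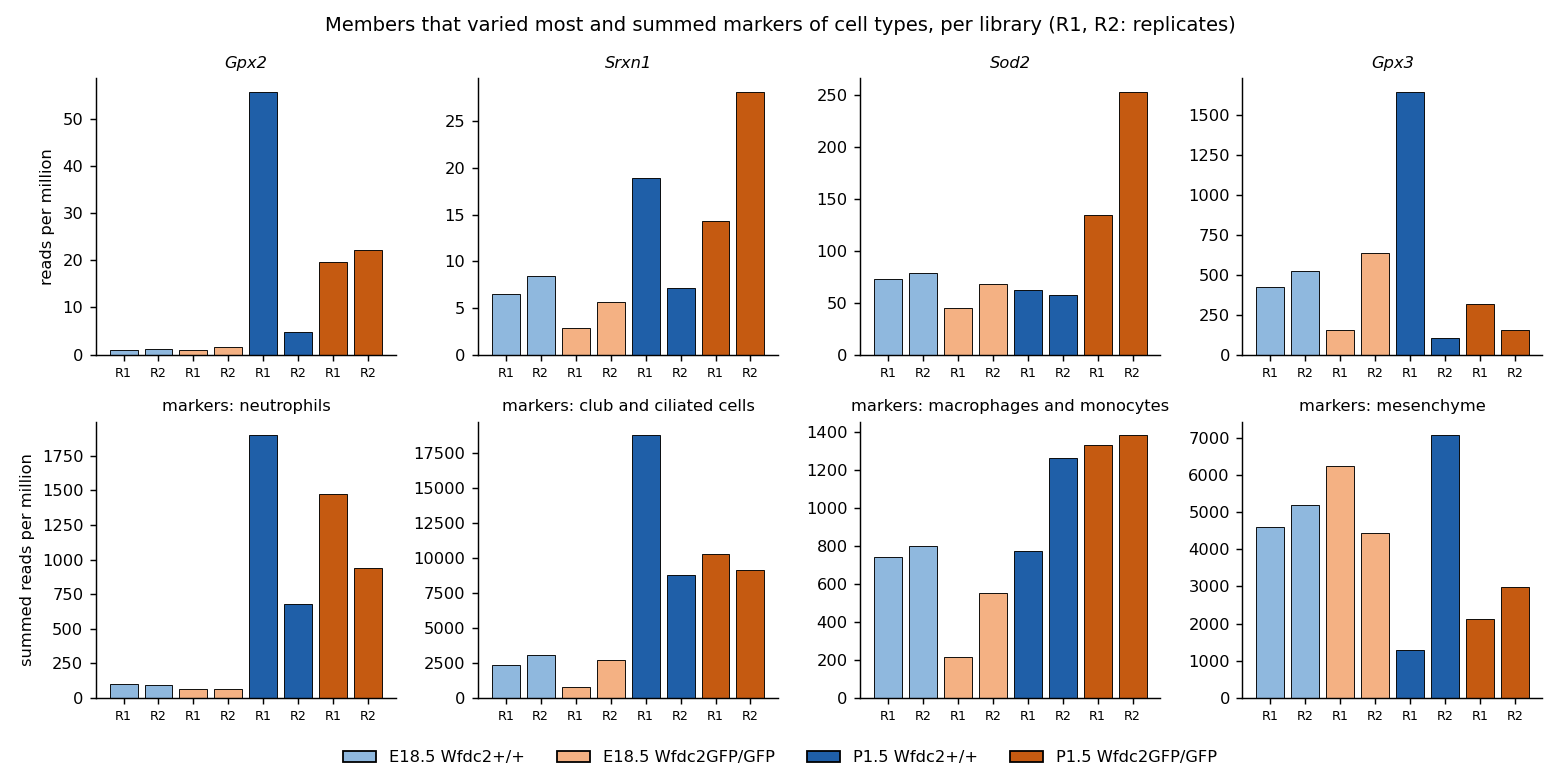
RPM (vertical axes, starting at 0) in each of the 8 libraries for *Gpx2*, *Srxn1*, *Sod2* and *Gpx3* (upper row) and for the summed markers of 4 cell types (lower row), with colours for the 4 groups and R1 and R2 for the replicates. *Gpx2* and *Gpx3* peak in P1.5 *Wfdc2*+/+ replicate 1, at 55.8 and 1648, and *Sod2* and *Srxn1* in P1.5 *Wfdc2*GFP/GFP replicate 2, at 253 and 28.2.

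*Sod2* was called higher after birth in *Wfdc2*GFP/GFP lungs. *Sod2* (chr17:13007839-13018119, plus strand) had 44.8 and 67.9 RPM in the E18.5 *Wfdc2*GFP/GFP libraries and 134 and 253 in the P1.5 ones. In *Wfdc2*+/+ lungs it had 73.0 and 78.4 at E18.5 and 62.4 and 57.5 at P1.5. The P1.5 *Wfdc2*GFP/GFP libraries were therefore the highest of all 8, and the other 6 lay together. At P1.5 the summed macrophage and monocyte markers were at 774 and 1263 RPM in *Wfdc2*+/+ lungs and at 1331 and 1385 in *Wfdc2*GFP/GFP lungs, and the neutrophil markers at 1903 and 682 and at 1472 and 939. The log2 change of *Sod2* across birth was 1.74 ± 0.38 (SE, n = 2 per stage, 95% interval 0.87 to 2.62) in *Wfdc2*GFP/GFP lungs, a 3.35-fold increase, with a limma adjusted p of 0.0479. It was -0.34 ± 0.38 in *Wfdc2*+/+ lungs (limma adjusted p = 0.630).

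Among all genes tested 1.61% were called higher and 2.94% lower across birth in *Wfdc2*GFP/GFP lungs, beside 1 and 0 of the 9 tested members. In *Wfdc2*+/+ lungs 0.0256% of genes were called higher and 0.032% lower, and no member was called, although 1 of the 9 (*Gpx2*) had an unadjusted p under 0.05, as 11.8% of all genes did. The *Sod2* call was close to the threshold. It was lost on leaving out either E18.5 *Wfdc2*+/+ library, E18.5 *Wfdc2*GFP/GFP replicate 1 or either P1.5 *Wfdc2*GFP/GFP library, with log2 changes from 1.29 to 2.20 and adjusted p from 0.0205 to 0.244 over the 8 single omissions. The adjusted p was 0.0614 with the replicate number as a block and 0.0538 with voom on the recovered reads.

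The difference of the *Sod2* change between the genotypes was 2.08 on the log2 scale (95% interval 0.84 to 3.32, limma adjusted p = 0.270). That comparison called 0 of all genes tested (0%), although 1599 genes had an unadjusted p under 0.05. So the change of *Sod2* is not shown to differ between *Wfdc2*+/+ and *Wfdc2*GFP/GFP lungs.

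*Srxn1* encodes sulfiredoxin, which repairs over-oxidised peroxiredoxins, and lies at chr2:152105516-152111376 on the plus strand. It had 6.51 and 8.41 RPM at E18.5 and 18.9 and 7.14 at P1.5 in *Wfdc2*+/+ lungs. *Wfdc2*GFP/GFP lungs had 2.85 and 5.64 at E18.5 and 14.4 and 28.2 at P1.5. In *Wfdc2*GFP/GFP lungs both P1.5 libraries lay above both E18.5 libraries, as for 2928 of the 15627 genes tested. In *Wfdc2*+/+ lungs the stages overlapped. The log2 change of 2.33 ± 0.58 in *Wfdc2*GFP/GFP lungs missed the threshold (limma adjusted p = 0.0558), as did 1.49 ± 0.41 over both genotypes (limma adjusted p = 0.0591) and 0.65 ± 0.58 in *Wfdc2*+/+ lungs (limma adjusted p = 0.550). The difference between the genotypes' changes was 1.68 (95% interval -0.22 to 3.58, limma adjusted p = 0.546). The change in *Wfdc2*+/+ lungs was -0.0499 when P1.5 replicate 1 was left out.

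Neither subunit of the enzyme that opens glutathione synthesis passed the test across birth. *Gclm*, the modifier subunit of glutamate-cysteine ligase (chr3:122245557-122269984, plus strand), had 41.1 and 43.2 RPM in E18.5 *Wfdc2*+/+ lungs and 37.7 and 36.5 in E18.5 *Wfdc2*GFP/GFP lungs. At P1.5 it had 12.9 and 34.4 in *Wfdc2*+/+ lungs and 12.1 and 23.4 in *Wfdc2*GFP/GFP lungs. All 4 P1.5 libraries lay below all 4 E18.5 libraries, which was so for 13.7% of the genes tested. The log2 change was -1.07 ± 0.37 over both genotypes (95% interval -1.93 to -0.22), with a limma adjusted p of 0.0816. Markers of mesenchyme were also lower in 3 of the 4 P1.5 libraries. The 8 markers summed to between 4450 and 6247 RPM at E18.5, and at P1.5 to 1289 and 7081 in *Wfdc2*+/+ lungs and to 2118 and 2974 in *Wfdc2*GFP/GFP lungs. Of these markers 7 had a negative log2 change over both genotypes (median -1.07), with 1 called lower and 1 called higher, and their part in the *Gclm* values was not tested. *Gclm* shares 14027 bases of its span with an antisense transcript, *Gm17494*, which had at most 20 reads in a library. On its own strand *Gclm* shares 492 bases with a pseudogene, *Gm6061*, which has no row among the deposited values.

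*Gclc*, the catalytic subunit of the same enzyme (chr9:77754535-77794485, plus strand), had 49.5 and 47.3 RPM in E18.5 *Wfdc2*+/+ lungs and 56.3 and 52.5 at P1.5. In *Wfdc2*GFP/GFP lungs it had 71.5 and 44.9 at E18.5 and 48.9 and 136 at P1.5. Its log2 change over both genotypes was 0.35 ± 0.35 (limma adjusted p = 0.460). The highest library stood alone, P1.5 *Wfdc2*GFP/GFP replicate 2, and without it the change was -0.02.

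*Slc7a11* (chr3:50364936-50443613, minus strand) supplies cystine for the same pathway. In *Wfdc2*+/+ lungs it had 44 and 10 reads at E18.5 and 37 and 31 at P1.5, and in *Wfdc2*GFP/GFP lungs 33 and 16 and then 25 and 114. In a fit without the minimum level its log2 change over both genotypes was 1.46 ± 0.58 (limma adjusted p = 0.0922). The 95% interval, 0.06 to 2.86, lay above 0, but the change did not pass the test after adjustment over all genes. In that fit 8037 of 25965 genes were higher with an unadjusted p under 0.05. The *Slc7a11* span shares 4002 bases on its own strand with *Gm37498*, which has no row among the deposited values.

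*Gpx3* had the widest disagreement between replicates. This secreted, selenium-containing peroxidase (chr11:54902453-54910377, plus strand) had 426 and 524 RPM in E18.5 *Wfdc2*+/+ lungs and 157 and 634 in E18.5 *Wfdc2*GFP/GFP lungs. At P1.5 it had 1648 and 103 in *Wfdc2*+/+ lungs and 319 and 153 in *Wfdc2*GFP/GFP lungs. The highest and the lowest of all 8 values were thus the replicates of 1 group. The log2 change over both genotypes was -0.36 ± 0.85 (95% interval -2.32 to 1.60, limma adjusted p = 0.760), and it was 0.11 after median centring. Without E18.5 *Wfdc2*GFP/GFP replicate 1 and P1.5 *Wfdc2*+/+ replicate 1, the libraries with the highest and lowest median, it was -1.86 (limma adjusted p = 0.0344).

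*Txnrd1*, cytosolic thioredoxin reductase (chr10:82859206-82897724, plus strand), had 65.7 and 66.7 RPM in E18.5 *Wfdc2*+/+ lungs and 79.4 and 63.1 in E18.5 *Wfdc2*GFP/GFP lungs. At P1.5 it had 20.1 and 50.1 in *Wfdc2*+/+ lungs and 40.8 and 66.1 in *Wfdc2*GFP/GFP lungs. The *Txnrd1* span shares 1305 bases on its own strand with the protein-coding *Eid3*, which has no row among the deposited values. In *Wfdc2*+/+ lungs the P1.5 libraries lay below the E18.5 ones, as for 4414 of the 15627 genes tested. The log2 change was -1.06 ± 0.48 there (limma adjusted p = 0.426) and -0.75 ± 0.34 over both genotypes (limma adjusted p = 0.140). Without P1.5 *Wfdc2*+/+ replicate 2 the change over both genotypes was -1.08 for *Txnrd1* (limma adjusted p = 0.0155) and -1.42 for *Gclm* (limma adjusted p = 0.0104), and that fit called 7125 genes.

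The haem and quinone enzymes had the 2 narrowest ranges over the libraries. *Hmox1* (chr8:75093591-75100596, plus strand) had 21.6 and 24.5 RPM in E18.5 *Wfdc2*+/+ lungs, 21.4 and 26.6 in E18.5 *Wfdc2*GFP/GFP lungs, 17.6 and 27.9 in P1.5 *Wfdc2*+/+ lungs and 23.5 and 45.1 in P1.5 *Wfdc2*GFP/GFP lungs. Its log2 change over both genotypes was 0.20 ± 0.28 (95% interval -0.46 to 0.85, limma adjusted p = 0.609). *Nqo1* (chr8:107388225-107403206, minus strand) had between 3.60 and 5.71 RPM in all 8 libraries. Its log2 change was -0.20 ± 0.26 (95% interval -0.80 to 0.40, limma adjusted p = 0.565) on the deposited scale and 0.27 after median centring.

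**Figure D3:**
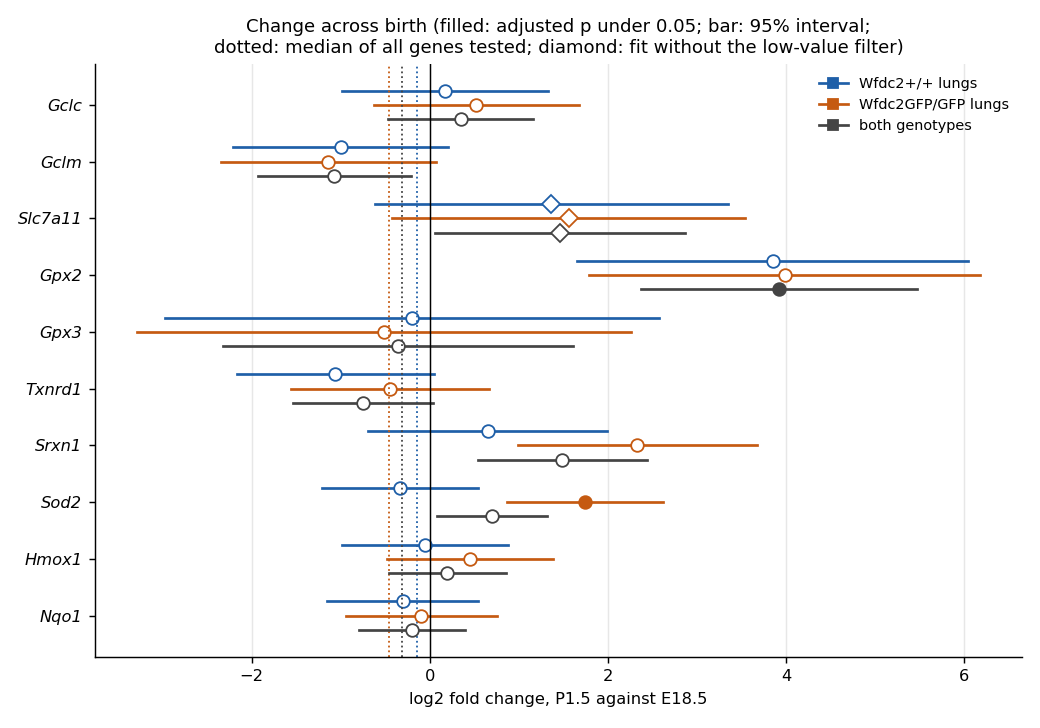
Log2 fold change between E18.5 and P1.5 (horizontal axis) for the 10 genes in *Wfdc2*+/+ lungs, in *Wfdc2*GFP/GFP lungs and over both genotypes, with 95% intervals as bars, filled points for an adjusted p under 0.05, diamonds for *Slc7a11* in the fit without a minimum level and dotted lines at the median of all genes tested. *Gpx2* over both genotypes (3.92) and *Sod2* in *Wfdc2*GFP/GFP lungs (1.74) are filled, and the *Gpx3* bars are the widest of the tested genes.

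The next comparison asked whether the loss of Wfdc2 changed these genes before or after birth. No member was called by limma at E18.5 or at P1.5. At E18.5 all genes called made up 0.0192% of those tested, and at P1.5 0.0128%, *Wfdc2* itself among them at both stages. At E18.5 the log2 differences of the 9 tested members, *Wfdc2*GFP/GFP against *Wfdc2*+/+, ran from -0.88 (*Srxn1*) to 0.23 (*Gclc*), with a median of 0.05 beside 0.09 for all genes tested. No member had an unadjusted p under 0.05 there, beside 4.37% of all genes.

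At P1.5 the log2 differences of 7 of the 9 were positive, with a median of 0.56 beside -0.20 for all genes tested, and 1 of the 9 (*Sod2*) had an unadjusted p under 0.05, as 10.9% of all genes did. The largest was that of *Sod2*, 1.62 ± 0.38 (SE, n = 2 per genotype, 95% interval 0.75 to 2.50), a 3.08-fold difference with a limma adjusted p of 0.272. *Sod2* and *Nqo1* were the 2 members whose *Wfdc2*GFP/GFP libraries both lay above both *Wfdc2*+/+ libraries, as 12.6% of all genes tested did. The *Nqo1* difference was only 0.31 ± 0.37 (limma adjusted p = 0.788). The remaining differences ran from -0.90 for *Gpx3* to 0.79 for *Srxn1*, both with intervals that include 0. Without the libraries of the highest and lowest median, the difference at P1.5 was 1.68 for *Sod2* and 2.09 for *Gpx2*. That fit leaves a lone *Wfdc2*+/+ library at P1.5, replicate 2, and assumes that it varies like the other groups. Replicate 2 had a median level of -0.22 and 1030 reads of the liver marker *Alb*, beside 8 to 55 in the other libraries. In sum the 8 liver markers did not set it apart, with 558 RPM there and 297 to 1040 at E18.5. Another of them, *Apoa1*, had 139 reads in P1.5 *Wfdc2*+/+ replicate 1 and 213 in replicate 2. Over the 8 single omissions the *Sod2* difference lay between 1.17 and 2.08.

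The *Gpx2* comparison at P1.5 rested on the disagreement of the *Wfdc2*+/+ replicates. With both, the difference was 0.34 ± 0.95 (95% interval -1.86 to 2.53). Without replicate 1 it was 2.09, and without replicate 2 it was -1.42. Neither direction can be given for it.

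**Figure D4:**
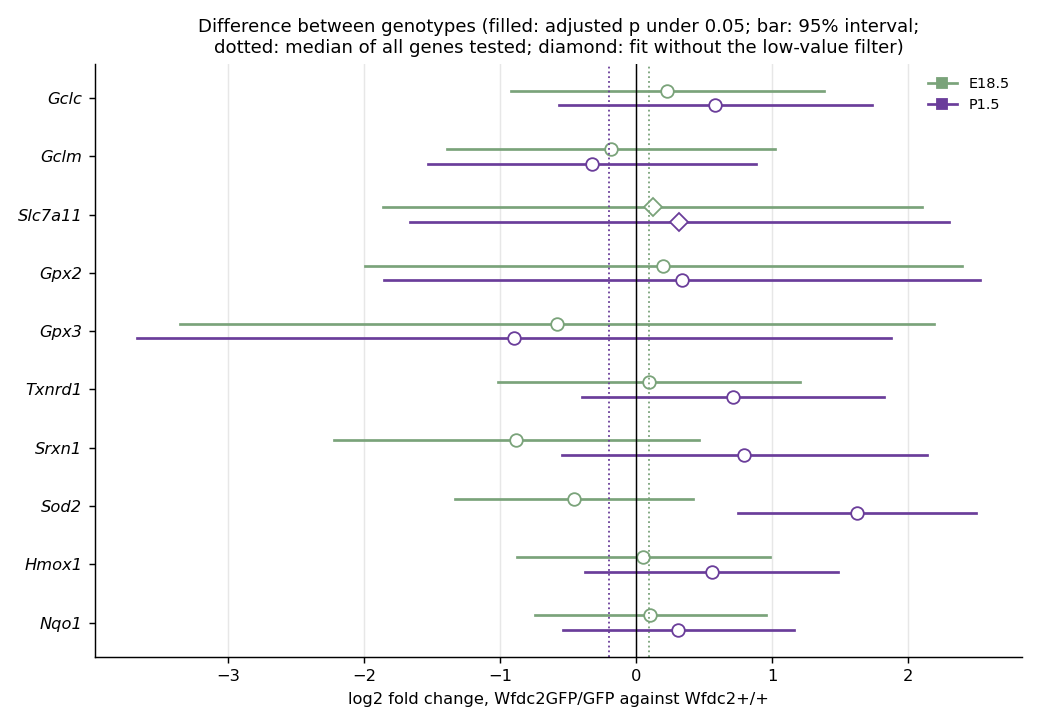
Log2 difference between *Wfdc2*GFP/GFP and *Wfdc2*+/+ lungs (horizontal axis) for the 10 genes at E18.5 and at P1.5, with 95% intervals as bars, open points for an adjusted p of 0.05 or more, diamonds for *Slc7a11* as above and dotted lines at the median of all genes tested. Every point is open, and at P1.5 *Sod2* (1.62) is the gene whose bar lies farthest from 0.

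The regulators of the pathway did not pass the test in any comparison. *Nfe2l2* had 154 and 157 RPM in E18.5 *Wfdc2*+/+ lungs, 184 and 158 in E18.5 *Wfdc2*GFP/GFP lungs, 82.9 and 118 in P1.5 *Wfdc2*+/+ lungs and 159 and 138 in P1.5 *Wfdc2*GFP/GFP lungs. The 2 P1.5 *Wfdc2*+/+ libraries were the lowest of the 8. Its log2 change across birth over both genotypes was -0.43 ± 0.21 (limma adjusted p = 0.166), and 0.04 after median centring, while its difference between genotypes at P1.5 was 0.58 ± 0.30 (limma adjusted p = 0.529). *Keap1* had log2 values of 0.14 ± 0.22 across birth (limma adjusted p = 0.625) and 0.41 ± 0.30 between genotypes at P1.5 (limma adjusted p = 0.679). *Bach1*, the repressor, had -0.57 ± 0.22 across birth (limma adjusted p = 0.104) and 0.12 ± 0.32 between genotypes at P1.5 (limma adjusted p = 0.898). Every P1.5 library of *Bach1* lay below every E18.5 library, as for 13.7% of the genes tested. Of all 12 listed regulators, 6 had a positive log2 change across birth over both genotypes, and 4 increases and 2 decreases had an unadjusted p under 0.05, beside 12.3% and 26.7% of all genes tested.

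The wider antioxidant pathways comprised 115 further listed genes, of which 101 were tested. Over both genotypes 5 of the 101 were called higher at P1.5 and none lower, beside the 2.58% and 2.56% of all genes. In *Wfdc2*GFP/GFP lungs 3 were called higher, beside 1.61% of all genes. In *Wfdc2*+/+ lungs none was called in either direction, and 16 had an unadjusted p under 0.05, beside 11.8% of all genes. No pathway gene was called between genotypes at either stage, where 5 of the 101 at E18.5 and 13 at P1.5 had an unadjusted p under 0.05, beside 4.37% and 10.9% of all genes tested. The median log2 change of the 101 genes over both genotypes was 0.30, with 63 positive and 38 negative values.

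The 5 genes called over both genotypes had different roles. *Osgin1*, an oxidative stress-induced growth inhibitor, had a log2 change of 2.22 ± 0.46 (limma adjusted p = 0.0425), from 2.02 to 5.85 RPM at E18.5 to 7.91 to 25.5 at P1.5. *Sod3*, the extracellular superoxide dismutase, rose by 2.13 ± 0.47 (limma adjusted p = 0.0467), with 1.40 to 6.54 RPM before birth and 12.2 to 25.8 after it. *Akr1b8*, an aldo-keto reductase, rose by 1.68 ± 0.29 (limma adjusted p = 0.0326) and *Gsta3*, a glutathione S-transferase, by 1.66 ± 0.36 (limma adjusted p = 0.0451). *Cyba*, the p22phox subunit of the NADPH oxidase that makes superoxide, rose by 1.65 ± 0.35 (limma adjusted p = 0.0429).

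*Hp*, haptoglobin, which captures free haemoglobin, rose in *Wfdc2*GFP/GFP lungs by 3.09 ± 0.65 on the log2 scale (limma adjusted p = 0.0469), together with *Akr1b8* (2.64 ± 0.41, limma adjusted p = 0.0324) and *Cyba* (2.28 ± 0.49, limma adjusted p = 0.0475). At P1.5 *Hp* had 844 and 328 RPM in *Wfdc2*+/+ lungs and 1459 and 1720 in *Wfdc2*GFP/GFP lungs. *Hp* and *Cyba* are also abundant in neutrophils, whose markers are given above and whose part in these changes was not tested. Like those of the members, these calls depended on single libraries. Each of these 8 calls was lost without either E18.5 *Wfdc2*+/+ library, E18.5 *Wfdc2*GFP/GFP replicate 1 or either P1.5 *Wfdc2*GFP/GFP library, and those of *Cyba*, *Osgin1*, *Sod3* and *Gsta3* over both genotypes also without P1.5 *Wfdc2*+/+ replicate 1. The highest adjusted p of each under single omissions lay between 0.145 and 0.235, and every one of the 8 was lost with the replicate number as a block.

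By role, 1 of 6 tested glutathione peroxidases (*Gpx2*), 1 of 5 superoxide dismutases and catalase (*Sod3*), 3 of 28 other NRF2 target enzymes and transporters (*Osgin1*, *Akr1b8* and *Gsta3*) and 1 of 9 NADPH oxidase genes (*Cyba*) were called higher over both genotypes. None was called among 11 genes of glutathione synthesis and reduction, 15 thioredoxins and peroxiredoxins, 9 genes of NADPH supply and 14 of haem and iron handling. Among all genes tested 2.58% were called higher and 2.56% lower. Lists of 5 to 28 genes are too small to set against these shares, so the roles are not ranked by them. The median log2 change was highest for the glutathione peroxidases (0.88), followed by the superoxide dismutases and catalase (0.70) and the NADPH oxidases (0.70). The lowest median, that of NADPH supply (-0.31), was close to that of all genes tested (-0.32).

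**Figure D5:**
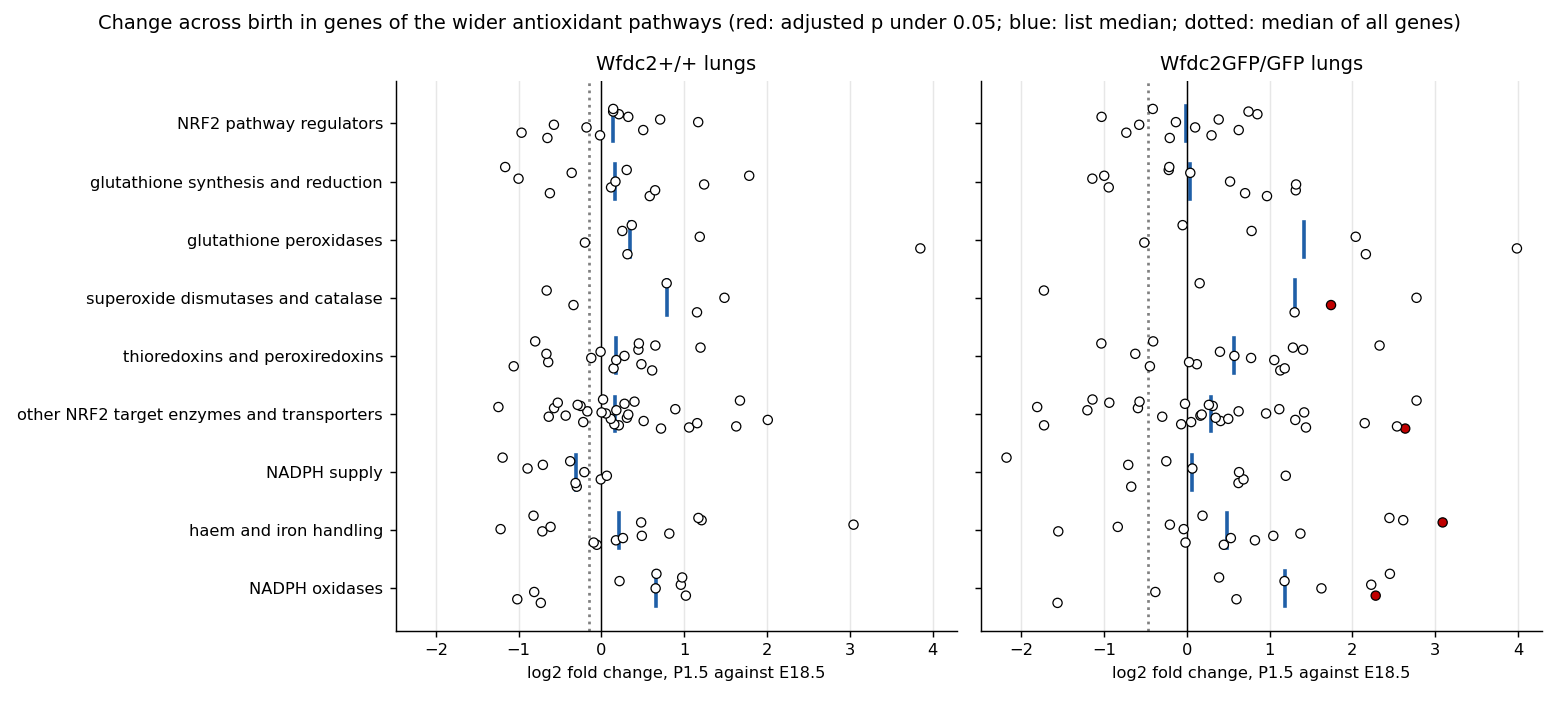
Log2 fold change between E18.5 and P1.5 (horizontal axis) of each tested gene in 9 lists of antioxidant and redox genes, in *Wfdc2*+/+ lungs (left) and *Wfdc2*GFP/GFP lungs (right), with red points for an adjusted p under 0.05, a blue line at the median of each list and a dotted line at the median of all genes tested. The red points, all in *Wfdc2*GFP/GFP lungs, are *Sod2* at 1.74, *Akr1b8* at 2.64, *Hp* at 3.09 and *Cyba* at 2.28.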

How the data were processed

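Whole-lung RNA was sequenced from directional libraries on Illumina instruments of more than 1 model. The study's methods do not say which model ran each library. Per the labels and the study's methods, reads were handled with CASAVA 1.8, trimmed with Trim Galore 0.4.0, mapped to mm10 with TopHat2 2.1.1 and counted in SeqMonk. The authors deposited log2 RPKM, with kilobases taken over the whole gene span, so intronic bases lower the values of long genes. A gene without reads was entered as 0.9 of a read. Read numbers were recovered from the steps of these values, which came out whole within 0.02 for 99.86% to 99.96% of values per library. Intervals over reads were not given, since counting error leaves out the spread between libraries.

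The 15627 genes whose mean reached 0.05 RPKM were fitted as 4 group means (4 residual degrees of freedom) with limma 3.58.1 in R 4.3.3, with eBayes and a trend, and adjusted by Benjamini-Hochberg. The 6 comparisons were the change across birth in each genotype and over both, the genotype difference at each stage, and the difference of the birth changes. With 2 libraries per group an exact permutation test cannot fall below 0.333. On simulated data the fit over both genotypes (15627 genes) found 64 of 67 log2 changes of 2 and 10 of 67 of 1 at a dispersion of 0.1, and 67 of 67 of either size at 0.01. Every simulated library had the E18.5 levels apart from the changes put in, and all genes had the same dispersion. Changes were put only into genes above a minimum level. Libraries that stand apart were not simulated, so these counts do not give the power in these data. Alternatives were other pseudocounts, filters, scalings, blocks, voom on the recovered reads and leaving out each library.

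The members and lists were chosen with earlier results of these data known. Named are the 10 members, *Wfdc2*, *Nfe2l2*, *Keap1* and *Bach1*, up to 5 increases and 5 decreases among called pathway genes without overlap, and markers. Of the listed genes, symbols not found in the table were matched through RefSeq synonyms. Exons were counted inside the deposited spans only. Motifs and exon lengths came from RefSeq and GENCODE M21 (GRCm38), the build of mm10.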

Additional observations from a re-analysis of the deposited data

Results flagged for a closer look

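*Sod2* moved in opposite directions across birth in the genotypes. Both P1.5 libraries lay below both E18.5 libraries in *Wfdc2*+/+ lungs, as for 4414 of the 15627 genes tested. In *Wfdc2*GFP/GFP lungs both lay above, as for 2928 of the genes tested. The difference of the log2 changes was 2.08, with a limma adjusted p of 0.270, so the opposite order of the libraries is a description and not a tested difference. It lay between 1.62 and 2.54 over all the other settings tried.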

How the results depend on the processing

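Counts are given here in a fixed order of comparisons: birth over both genotypes, birth in *Wfdc2*+/+ lungs, birth in *Wfdc2*GFP/GFP lungs, genotype at E18.5, genotype at P1.5 and the difference of the birth changes. As reported, 1, 0, 1, 0, 0 and 0 members and 803, 9, 711, 3, 2 and 0 of all genes were called. Of the 9 tested members, 2 and 3 were called across birth over both genotypes and in *Wfdc2*GFP/GFP lungs with a minimum of 0.5 RPKM (*Gpx2* and *Srxn1*, with *Sod2* in the latter), 3 and 3 after median centring (*Gpx2*, *Srxn1* and *Sod2* in each), and 0 and 0 without a filter or with 1 RPKM added. For birth in *Wfdc2*GFP/GFP lungs 3 members were called when only its own libraries were fitted, and 0 with a prior without a trend, with the replicate block or with voom on recovered reads. Quantile normalization and 0.1 RPKM added left these counts at 1 and 1. Leaving out both libraries of extreme median, which was chosen after seeing the data, gave 2, 0, 2, 0, 2 and 0 members: *Gpx2* with *Gpx3*, *Srxn1* and *Sod2* in turn. Leaving out 1 library gave 0 to 4, 0 to 3, 0 to 4, 0, 0 and 0 members, with 4, 3 and 4 all reached without P1.5 *Wfdc2*+/+ replicate 2, and 4 in *Wfdc2*GFP/GFP lungs also without replicate 1 of that group.

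All genes called were 1684, 52, 1011, 1, 3 and 0 with the minimum of 0.5 RPKM, 428, 35, 349, 22, 21 and 0 without a filter, 1004, 16, 608, 6, 11 and 0 with 0.1 RPKM added and 461, 17, 237, 3, 5 and 0 with 1 RPKM added. They were 1842, 5, 1279, 0, 0 and 0 after median centring, 1278, 49, 706, 0, 0 and 0 after quantile normalization, 527, 13, 543, 8, 5 and 0 without a trend and 685, 0, 129, 0, 0 and 0 with voom. With only the libraries compared, there were 0 and 3036 calls across birth in *Wfdc2*+/+ and in *Wfdc2*GFP/GFP lungs and 1 and 0 between genotypes at E18.5 and P1.5. Without both libraries of extreme median the counts were 1474, 88, 2778, 0, 2667 and 0. Leaving out 1 library gave 28 to 7125, 0 to 2166, 0 to 4874, 0 to 1, 0 to 24 and 0 to 2. The calls over both genotypes were 403 higher and 400 lower as reported, and 1278 higher and 564 lower after median centring. Those in *Wfdc2*GFP/GFP lungs were 252 and 459 as reported, 849 and 430 after median centring and 377 and 329 after quantile normalization. In *Wfdc2*+/+ lungs they were 4 and 5 as reported and 36 and 13 after quantile normalization.

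The replicate numbers were not taken as pairs, since the deviations of equal numbers correlated at 0.23 within E18.5 and 0.21 within P1.5 but between -0.29 and 0.08 across the stages. With the replicate block the counts of all genes were 287, 0, 125, 0, 0 and 0, and with a block within each stage the last 3 were 1, 9 and 0. The block coincides with sex as *Xist* shows it.

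Single log2 values turned sign in some settings, none of them called as reported. After median centring, the change over both genotypes was 0.27 for *Nqo1*, 0.11 for *Gpx3* and 0.0416 for *Nfe2l2*. In *Wfdc2*+/+ lungs it was 0.21 for *Hmox1* and 0.066 for *Gpx3*, and in *Wfdc2*GFP/GFP lungs 0.58 for *Nqo1*, 0.23 for *Txnrd1* and 0.16 for *Gpx3*. The genotype difference at E18.5 became -0.11 for *Nqo1*, -0.16 for *Hmox1*, -0.11 for *Txnrd1* and -0.0089 for *Gpx2*, and the difference of the birth changes 0.27 for *Gclm* and 0.10 for *Gpx3*. After quantile normalization *Nqo1* changed by 0.32 over both genotypes and by 0.70 in *Wfdc2*GFP/GFP lungs, the E18.5 differences were -0.12 for *Nqo1*, -0.11 for *Hmox1*, -0.0836 for *Txnrd1* and -0.0181 for *Gpx2*, and the difference of the birth changes was 0.27 for *Gclm*. Without both libraries of extreme median, birth changes in *Wfdc2*+/+ lungs were 0.28 for *Hmox1* and -0.0499 for *Srxn1*, E18.5 differences -0.11 for *Gclc*, -0.0696 for *Txnrd1* and 0.42 for *Gpx3*, and *Gpx3* had 1.10 between genotypes at P1.5 and 0.68 for the difference of the birth changes.

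Leaving out 1 library at a time turned the sign within these ranges. Over both genotypes they were -0.0393 to 0.43 for *Hmox1*, -0.0214 to 0.71 for *Gclc* and -1.36 to 0.64 for *Gpx3*. In *Wfdc2*+/+ lungs they were -0.39 to 0.28 for *Hmox1*, -0.0499 to 1.35 for *Srxn1* and -2.20 to 1.80 for *Gpx3*. Those in *Wfdc2*GFP/GFP lungs were -0.20 to 0.008 for *Nqo1*, -0.0226 to 0.92 for *Hmox1*, -0.21 to 1.26 for *Gclc* and -1.52 to 0.49 for *Gpx3*. Between genotypes at E18.5 they were -0.11 to 0.21 for *Hmox1*, -0.11 to 0.56 for *Gclc*, -0.0696 to 0.26 for *Txnrd1*, -0.0895 to 0.49 for *Gpx2* and -1.59 to 0.42 for *Gpx3*. At P1.5 they were -0.15 to 1.32 for *Gclc*, -1.03 to 0.38 for *Gclm*, -1.42 to 2.09 for *Gpx2*, -2.90 to 1.10 for *Gpx3* and -0.0612 to 0.30 for *Bach1*. For the difference of the birth changes they were -0.38 to 1.09 for *Gclc*, -0.85 to 0.57 for *Gclm*, -0.0441 to 1.27 for *Txnrd1*, -1.62 to 1.89 for *Gpx2* and -2.31 to 1.69 for *Gpx3*. The cause of these shifts was not tested.

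In the simulation, which held no libraries that stand apart, the power of 2 libraries per group depended on the spread. Over both genotypes, log2 changes of 1 were found for 10 of 67 genes at a dispersion of 0.1 and for 67 of 67 at 0.01, and within 1 genotype for 0 to 2 and for 62 to 66. *Slc7a11*, at 10 to 114 reads, entered only the fit without a filter. The order of the members' levels depends on the length used.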
